A study of Mus musculus with 6 samples.

Results

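Preadipocyte and stromal markers are 10 genes by which the cells that give rise to adipocytes, and the other connective tissue cells around them, are usually recognised: Pdgfra, Pdgfrb, Cd34, Ly6a, Dpp4, Thy1, Cd200, Zfp423, Tcf21 and Postn. They were chosen by name, out of 22466 genes with a RefSeq transcript in the deposited table. The most abundant RefSeq transcript stood for each gene. Of the 10 genes, 8 reached the mean of 0.5 RPKM over all cultures that a transcript needed to be tested, as did 12259 genes in all. Dpp4 and Tcf21 did not.

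The study sequenced RNA of primary brown adipocytes: 3 cultures were WT, numbered as replicates 10, 11 and 12, and 3 were Ucp1-KO, numbered 13, 14 and 15. All cultures came from male mice aged 5 to 6 weeks, wildtype or deficient in the uncoupling protein of brown fat mitochondria. Their strain is 129SvEvS1 in the labels and 129Sv/S1 in the study's text. Precursors from the stromal-vascular fraction of interscapular brown fat were grown to confluency, induced with isobutylmethylxanthine, indomethacin, dexamethasone, insulin, T3 and rosiglitazone for 2 days and kept on insulin, T3 and rosiglitazone for 7 days. The study describes the cultures of a genotype as independent, and p-values measure the spread between these cultures. The Ucp1-KO mice still make a remnant Ucp1 transcript without protein, so that the level of this transcript, 981 to 1775 RPKM in WT cells and 307 to 409 RPKM in Ucp1-KO cells, differs between the labelled genotypes but does not vanish.

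Brown fat precursors carry the receptors for platelet-derived growth factors and sit among endothelial, mural and blood-derived cells in the stromal-vascular fraction. Cultured precursors lose many of these surface proteins while they fill with lipid, and cells that do not differentiate keep them. In RNA from a whole culture, fewer cells of a type and less RNA per cell cannot be told apart.

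The values are RPKM, read numbers scaled to transcript length and to the depth of each culture, and can be compared between genes because they are per length. The reads behind them were recovered from the table and amounted to totals of 14989604 to 17727653 per culture. On a transcript of 2000 bases, 3 reads were worth 0.0846 to 0.1001 RPKM. Adipocyte genes, which mark the labelled cell type, were abundant: Adipoq, the adiponectin gene, reached 1135 to 1714 RPKM and Cidec, which encodes a lipid droplet protein, 769 to 1419 RPKM. Of 11 adipocyte genes, 7 were higher and 4 lower in Ucp1-KO cells, with a median log2 fold change of 0.06 that lay between 0.015 without WT replicate 11 and 0.12 without WT replicate 10. Of these genes, 1 had an unadjusted p under 0.05, Ucp1 itself (1.57e-04 by limma, adjusted p = 0.868). Of 8 genes of the skeletal muscle lineage, 3 were at 0 in every culture and 1, Acta1, was tested (2.19 to 8.90 RPKM, log2 fold change 0.31). With 1 culture left out, the value for Acta1 lay between -0.10 (without Ucp1-KO replicate 13) and 0.72 (without Ucp1-KO replicate 14).

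The markers covered a wide range of abundance in these differentiated cells. Postn was the most abundant, rank 369 of 28890 RefSeq transcripts by the mean of all cultures, followed by Ly6a at rank 539 and Thy1 at rank 964. Both platelet-derived growth factor receptors followed at ranks 3650 (Pdgfrb) and 4118 (Pdgfra). Cd200, Zfp423 and Cd34 were expressed at a few RPKM, and Tcf21 and Dpp4 at a few reads.

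**Figure D1:**
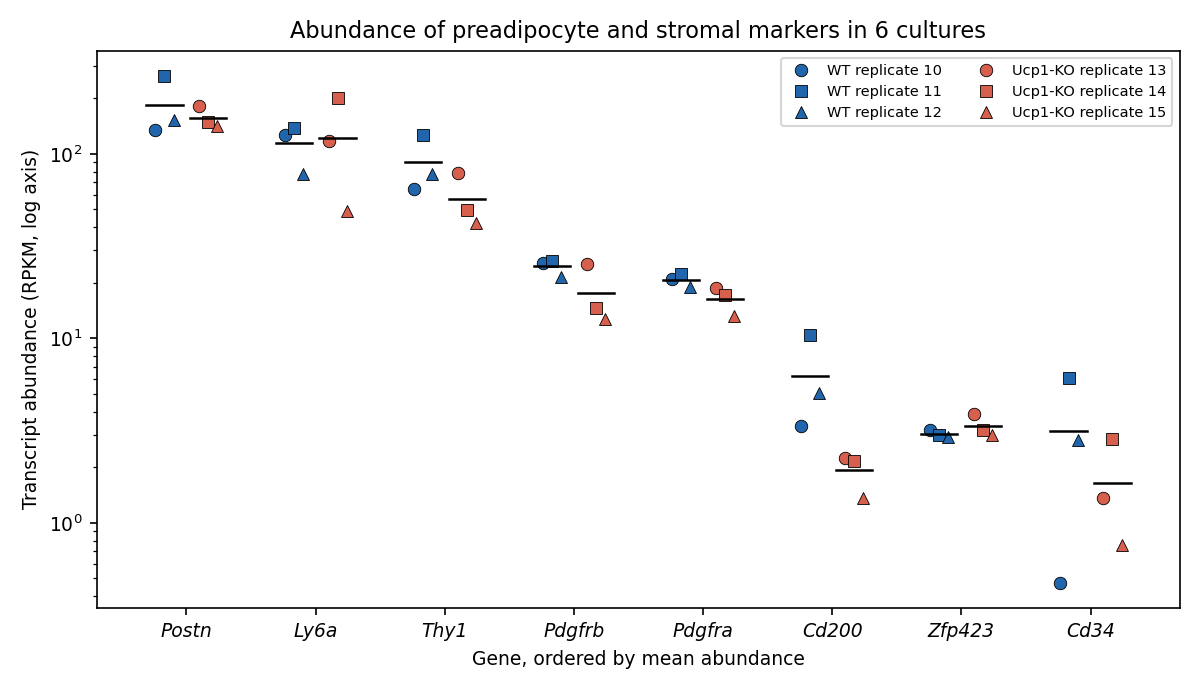
Abundance of the 8 tested markers in RPKM on a log axis, 1 point per culture, with symbols for the replicates and a black line at the mean of each genotype. All Ucp1-KO points lie below all WT points in Cd200 and Pdgfra, and WT replicate 11 is the highest culture in 6 of the 8 genes.

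Between genotypes, 7 of the 8 tested markers had a lower level in Ucp1-KO than in WT cells on the log2 scale and 1 a higher one. Of all tested transcripts, 50.4% had a log2 fold change under 0. Among the 7, Ly6a had a higher mean RPKM in Ucp1-KO cells. The median log2 fold change of the 8 markers (Ucp1-KO minus WT, of RPKM + 1) was -0.39, whereas that of all 16865 tested transcripts was -0.0016. The number of lower markers and their median rested in large part on single cultures. Without WT replicate 11, 4 of the 8 were lower and the median was -0.10, and without Ucp1-KO replicate 15, 6 were lower and the median was -0.19. By limma with Benjamini-Hochberg adjustment, 0 of the 8 passed an adjusted p of 0.05, as did 0 of all tested transcripts (0%), and the smallest adjusted p of any transcript was 0.868. The limma-voom fit on recovered reads also called 0, and 935 transcripts had an unadjusted p under 0.05 by limma. At an unadjusted p under 0.05, 1 of the 8 was called, Cd200, against a background of 5.54% of all tested transcripts. The 3 values of each genotype did not overlap in 2 of the 8, against 11.2% of all tested transcripts. In both of these, Cd200 and Pdgfra, the Ucp1-KO cultures were the lower ones, a pattern that 5.15% of all tested transcripts showed. These are few genes, and their counts are set beside the background without a test. In simulated data with 200 of 16865 transcripts changed 3-fold, 155 of the changed ones were called. The simulated noise was drawn for each transcript separately, without shifts shared by a whole culture, so that this share need not hold for these data. Ucp1, with a log2 fold change of -1.78, had a limma adjusted p of 0.868.

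**Figure D2:**
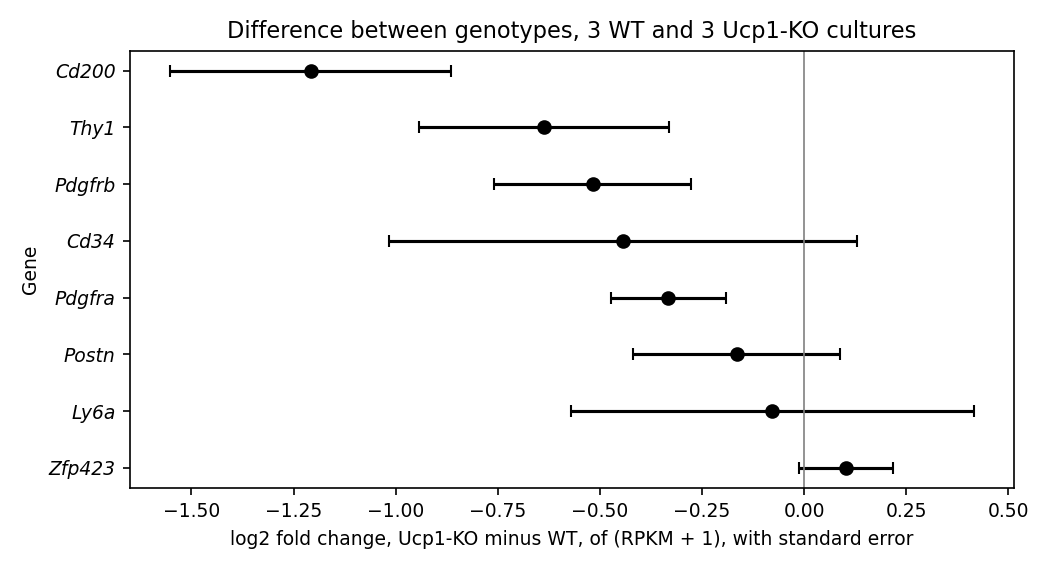
Log2 fold change of (RPKM + 1), Ucp1-KO minus WT, for the 8 tested markers, with the limma standard error as a bar (3 WT and 3 Ucp1-KO cultures). Cd200 lies farthest from 0 at -1.21, and Zfp423 is the only marker above 0.

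Promoter sequences are shown for Cd200, Cd34 and Postn, 3 of the markers that were highest in WT replicate 11. Each holds the 250 bases before an entry of the RefSeq promoter table of GRCm38.p6 that lies within 10 bases of the gene start in GENCODE, read 5′ to 3′ on the gene's strand. For Postn this start lies inside the RefSeq gene span given further on, and the table holds a second window, chr3:54359017-54359266, directly before the start of that span. RefSeq entries were found for 7 of the 10 markers: Pdgfra, Cd34, Dpp4, Cd200, Zfp423, Tcf21 and Postn. Capitals mark the matches to 3 motifs, searched on both strands. The first is the TATA box, spelled TATAAA. The second is the GC box that Sp1 binds, spelled GGGCGG. The third is the E-box that basic helix-loop-helix factors bind, spelled CANNTG. The windows are chr16:45409054-45409303 (reverse strand) for Cd200, chr1:194938571-194938820 (forward strand) for Cd34 and chr3:54360857-54361106 (forward strand) for Postn.
Cd200: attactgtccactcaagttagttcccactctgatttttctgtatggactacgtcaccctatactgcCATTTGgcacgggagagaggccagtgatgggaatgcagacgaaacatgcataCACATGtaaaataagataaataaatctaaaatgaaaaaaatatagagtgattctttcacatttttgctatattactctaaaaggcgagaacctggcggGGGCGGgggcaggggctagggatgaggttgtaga
Cd34: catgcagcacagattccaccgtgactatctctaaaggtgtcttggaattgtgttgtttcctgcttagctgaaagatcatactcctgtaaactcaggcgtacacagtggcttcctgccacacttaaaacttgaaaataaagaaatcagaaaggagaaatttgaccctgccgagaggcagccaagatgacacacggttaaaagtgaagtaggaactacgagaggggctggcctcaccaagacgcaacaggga
Postn: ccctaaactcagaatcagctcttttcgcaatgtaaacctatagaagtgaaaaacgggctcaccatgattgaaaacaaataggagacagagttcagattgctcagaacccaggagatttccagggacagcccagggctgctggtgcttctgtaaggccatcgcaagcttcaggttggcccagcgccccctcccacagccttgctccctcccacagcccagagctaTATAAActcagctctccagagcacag
Of 32851 windows of the same length in the table, 12.4% held the TATA box, 32.7% the GC box and 66.2% the E-box. The Cd200 window held a GC box whose first base lies 34 bases before the start and E-boxes at 184 and 132 bases before it. The Postn window held a TATA box at 26 bases before its start, and the other Postn window held 0 matches to the 3 motifs. In the Cd34 window these letters were not found. The 3 windows printed shared no motif of those searched.

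Pdgfra and Pdgfrb encode the receptor tyrosine kinases for platelet-derived growth factors. Pdgfra marks fibroblast-like cells including adipocyte precursors, and Pdgfrb also marks pericytes and smooth muscle cells. Pdgfra (NM_011058, chromosome 5, 75151322 to 75198206 of GRCm38.p6) was at 20.9, 22.3 and 18.98 RPKM in WT replicates 10, 11 and 12, and at 18.8, 17.1 and 13.2 RPKM in Ucp1-KO replicates 13, 14 and 15. The highest Ucp1-KO value lay just under the lowest WT value. The means were 20.7 ± 1.64 and 16.4 ± 2.84 RPKM (SD, n = 3 each), so that Ucp1-KO cells held 79.0% of the WT level. This is a log2 fold change of -0.33 (standard error 0.14, limma unadjusted p = 0.0506, adjusted p = 0.868), and the exact two-sided permutation test gave p = 0.1, the smallest that 3 cultures against 3 allow. It was -0.43 without Ucp1-KO replicate 13 (unadjusted p = 0.0199) and -0.20 without Ucp1-KO replicate 15 (unadjusted p = 0.121). Without Ucp1-KO replicate 13, 9.14% of all tested transcripts had an unadjusted p under 0.05. The other RefSeq transcript of the gene had almost the same values. Of the 9 rows of the gene in all annotations, 9 passed the minimum, and the Ucp1-KO cultures lay below all WT cultures in 3 of them.

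Pdgfrb (NM_001146268) was at 25.6, 26.4 and 21.5 RPKM in the WT cultures and at 25.2, 14.6 and 12.7 RPKM in the Ucp1-KO cultures. Ucp1-KO replicate 13 lay within the WT range and the other two well below it. The means were 24.5 ± 2.63 and 17.5 ± 6.75 RPKM (SD, n = 3 each). The log2 fold change of -0.52 (standard error 0.24) did not pass the test (limma unadjusted p = 0.0695, adjusted p = 0.868), nor did the exact two-sided permutation test (p = 0.2). Without Ucp1-KO replicate 13 it was -0.80 (unadjusted p = 7.59e-04, adjusted p = 0.456), and without Ucp1-KO replicate 15 it was -0.33. Over all settings tried, the adjusted p of Pdgfrb ranged from 0.456 to 0.999.

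The ratio of Pdgfra to Pdgfrb was 0.815, 0.843 and 0.882 in the WT cultures and 0.745, 1.17 and 1.04 in the Ucp1-KO cultures. It was above 1 in Ucp1-KO replicates 14 and 15, where Pdgfrb was lowest. The summed level of genes of mural and smooth muscle cells, which also carry Pdgfrb, was low in the same cultures. It was 362, 244 and 198 RPKM in the WT and 281, 89.2 and 64.1 RPKM in the Ucp1-KO cultures. Acta2 and Tagln, which made up most of it, followed this order, but not all genes of the list did. Notch3 was highest in Ucp1-KO replicate 15 (8.52 RPKM). Rgs5 was at 0.137 RPKM in Ucp1-KO replicate 13, where Pdgfrb lay within the WT range, against 0.583 to 5.56 RPKM in the WT cultures. All 9 genes of that list were tested, 1 higher and 8 lower in Ucp1-KO cells, with a median log2 fold change of -0.55. This median was -1.24 with 0.1 in place of 1 RPKM added, -1.02 with a minimum of 1 RPKM and -1.32 by limma-voom. The part of these genes in the levels of Pdgfrb was not tested.

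Of the mural genes, Cspg4, which encodes the proteoglycan NG2 (-0.47, unadjusted p = 0.0063), Abcc9, a potassium channel subunit of pericytes (-1.02, unadjusted p = 0.0244), and Myh11, smooth muscle myosin (-0.55, unadjusted p = 0.0351), were lower in Ucp1-KO cells at an unadjusted p under 0.05. These are 3 of 9 genes, against 5.54% of all tested transcripts at that threshold, and their limma adjusted p was 0.868. Most of the sum came from the smooth muscle actin gene Acta2 and from Tagln, transgelin. Acta2 was at 181 RPKM in WT replicate 10 and at 21.8 RPKM in Ucp1-KO replicate 15 (log2 fold change between genotypes -1.29, unadjusted p = 0.0908). Tagln was at 153 RPKM and 19.1 RPKM in the same cultures.

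Cd34, Ly6a, Thy1 and Dpp4 encode cell surface proteins by which adipocyte precursors are sorted. Cd34 is a sialomucin shared by precursors, endothelial cells and blood progenitors. Its transcript (NM_133654, chromosome 1, 194938821 to 194961292 of GRCm38.p6) was at 0.475, 6.13 and 2.81 RPKM in the WT cultures and at 1.36, 2.85 and 0.758 RPKM in the Ucp1-KO cultures. Behind these values stood 20, 252 and 123 WT reads and 54, 121 and 28 Ucp1-KO reads. The lowest and the highest of all cultures were both WT, and differed 12.9-fold.

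The means of Cd34 were 3.14 ± 2.84 and 1.65 ± 1.08 RPKM (SD, n = 3 each), a smaller difference than the spread between WT cultures. On the log2 scale the fold change came to -0.44 with a standard error of 0.57 (limma adjusted p = 0.919), and the exact two-sided permutation test gave p = 0.7. It was 0.085 without WT replicate 11 and -1.05 without WT replicate 10 (unadjusted p = 0.0425, adjusted p = 0.469). Without WT replicate 10, 10.4% of all tested transcripts had an unadjusted p under 0.05. Over all settings tried, the adjusted p of Cd34 ranged from 0.469 to 1.

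The Cd34 pattern over the cultures was shared by endothelial genes. Of the 8 endothelial genes listed, 6 were tested, and all 6 were highest in WT replicate 11. The summed level of all 8 was 3.34, 40.6 and 17.8 RPKM in the WT and 8.27, 18.3 and 7.54 RPKM in the Ucp1-KO cultures, and the highest value of each of the 6 was 8.09 to 15.8 times its lowest. Pecam1, an adhesion molecule of endothelial cells, was at 1.03, 13.01 and 6.53 RPKM in the WT and at 2.57, 6.25 and 2.55 RPKM in the Ucp1-KO cultures.

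The ratio of Cd34 to Pecam1, looked at after the values of both were seen, was 0.462, 0.471 and 0.431 in the WT and 0.527, 0.456 and 0.298 in the Ucp1-KO cultures. Its highest value was 1.77 times its lowest, whereas the ratios of the other 7 tested markers to Pecam1 varied 6.43-fold (Postn) to 13.4-fold (Zfp423). Pecam1 alone varied 12.7-fold and Zfp423 alone 1.33-fold, so that the ratio of a steady gene to Pecam1 varies widely by construction. Cdh5, the cadherin of endothelial junctions (4.64 RPKM on average), and Esam, an endothelial adhesion molecule (2.07 RPKM), completed the abundant endothelial genes. All 6 tested were lower in Ucp1-KO cells on the log2 scale (median -0.33), and 0 passed an unadjusted p of 0.05. The median was 0.14 without WT replicate 11, -0.88 without WT replicate 10, -0.56 without Ucp1-KO replicate 14 and -0.20 without Ucp1-KO replicate 15. Their part in the Cd34 values was not tested.

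Ly6a encodes the glycosyl-phosphatidylinositol-anchored antigen Sca-1 of mouse stem and progenitor cells. Its level (NM_010738, chromosome 15, 74994877 to 74998031) was 126, 138 and 78.1 RPKM in the WT and 117, 200 and 48.9 RPKM in the Ucp1-KO cultures. The Ucp1-KO group held both the highest and the lowest culture, which differed 4.08-fold. The means of 114 ± 31.6 and 122 ± 75.5 RPKM (SD, n = 3 each) overlapped widely (log2 fold change -0.08, standard error 0.49, limma adjusted p = 0.985, exact two-sided permutation test p = 1.0). The mean of the RPKM values was higher and that of the log2 values lower in Ucp1-KO cells, and the sign turned when WT replicate 10 or 11 or Ucp1-KO replicate 15 was left out (0.01, 0.08 and 0.46). Of the 50-base windows of Ly6a transcripts, 18.97% also occur in other genes such as Ly6c1 and Ly6i, and because the study assigned only reads identified as unique, reads from such windows may be missing from its level.

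The culture with the most Ly6a, Ucp1-KO replicate 14, also had the most leukocyte RNA, and the culture with the least Ly6a, Ucp1-KO replicate 15, the least. The summed level of 8 leukocyte genes was 56.2, 173 and 107 RPKM in the WT and 162, 811 and 41.8 RPKM in the Ucp1-KO cultures, a 19.4-fold range. Most of it was Lyz2, the lysozyme of macrophages and neutrophils, with 39.3 RPKM in WT replicate 10, 657 RPKM in Ucp1-KO replicate 14 and 29.98 RPKM in Ucp1-KO replicate 15. Cd68, of lysosomes in macrophages (9.20 to 81.4 RPKM), and Adgre1, the F4/80 antigen (0.843 to 40.8 RPKM), followed. Cd3e, a gene of T lymphocytes, was at 0 in every culture. The 6 tested leukocyte genes were all higher in Ucp1-KO cells on the log2 scale (median 0.32, 0 past an unadjusted p of 0.05), but their median was -0.36 without Ucp1-KO replicate 14, 1.2 without Ucp1-KO replicate 15, 0.12 without WT replicate 10 and 0.58 without WT replicate 11. In the other 4 cultures the order of the leukocyte sums was not that of Ly6a. The part of leukocytes in the Ly6a values was not tested.

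Thy1 encodes CD90, a surface glycoprotein of fibroblasts and neurons. Its transcript (NM_009382, chromosome 9, 44043384 to 44048579) was at 64.6, 127 and 77.9 RPKM in the WT and at 78.8, 49.8 and 42.4 RPKM in the Ucp1-KO cultures. Ucp1-KO replicate 13 lay above WT replicates 10 and 12, and the other Ucp1-KO cultures below all WT cultures. The means were 89.8 ± 32.7 and 57.0 ± 19.2 RPKM (SD, n = 3 each), with a log2 fold change of -0.64 (standard error 0.31, limma unadjusted p = 0.0769, adjusted p = 0.871, exact two-sided permutation test p = 0.3). Without WT replicate 11 it was -0.36, without Ucp1-KO replicate 13 it was -0.89 (unadjusted p = 0.0189) and without WT replicate 10 it was -0.84 (unadjusted p = 0.0398). Of all tested transcripts, 9.14% without Ucp1-KO replicate 13 and 10.4% without WT replicate 10 had an unadjusted p under 0.05.

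Dpp4 encodes dipeptidyl peptidase 4, which marks interstitial progenitors that lie upstream of committed preadipocytes in fat. Its most abundant RefSeq transcript (NM_010074, chromosome 2, 62330073 to 62412315) had 3, 3 and 5 reads in the WT cultures, and in Ucp1-KO cells 1, 0 and 0. For 0 reads the exact 95% Poisson interval, which covers counting error only, reached up to 3.69 reads, and for 3 reads it spanned 0.619 to 8.77. Every Ucp1-KO culture had fewer reads than every WT culture (exact two-sided permutation test of the RPKM values, p = 0.1, the smallest possible), but the intervals of single cultures overlapped. In the other RefSeq transcript of the gene, with 1, 1 and 2 WT reads and 1, 0 and 0 Ucp1-KO reads, the genotypes overlapped. With no minimum abundance, the limma unadjusted p was 0.0040 and the adjusted p 0.785. No fold is given, because most of the values are at or under the floor of 3 reads. None of the 13 annotated rows of the gene exceeded a mean of 0.0317 RPKM.

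Other genes of interstitial progenitors were low to moderate. Of 8 listed, 5 were tested, 1 higher and 4 lower in Ucp1-KO cells, with a median log2 fold change of -0.45 and 0 past an unadjusted p of 0.05. Without Ucp1-KO replicate 15 the median was -0.09, and without replicate 13 it was -0.72. The most abundant were Anxa3, an annexin (7.69 to 25.8 RPKM), Sema3c, a secreted semaphorin (7.0 to 11.7 RPKM), and the tetraspanin gene Cd9 (3.81 to 16.3 RPKM). Of 8 genes of committed preadipocytes, 7 were tested, 3 higher and 4 lower (median -0.17, 0 past an unadjusted p of 0.05). The median was -0.0046 without Ucp1-KO replicate 15 and -0.033 without WT replicate 11. Their sum was almost all Fabp4, the fatty acid-binding protein that differentiated adipocytes express too, with 26399 to 29312 RPKM. The type IV collagen gene Col4a1 (114 to 206 RPKM) and the adipogenic transcription factor gene Cebpa (131 to 174 RPKM) came next.

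Cd200 encodes a membrane glycoprotein of the immunoglobulin superfamily that restrains myeloid cells through the receptor Cd200r1. Its transcript (NM_010818, chromosome 16, 45382111 to 45409060 of GRCm38.p6) was at 3.34, 10.4 and 5.05 RPKM in the WT and at 2.24, 2.18 and 1.36 RPKM in the Ucp1-KO cultures, from 134, 408, 210, 85, 88 and 48 reads. Every Ucp1-KO culture lay below every WT culture, and the WT cultures differed 3.11-fold among themselves. The means were 6.27 ± 3.69 and 1.93 ± 0.489 RPKM (SD, n = 3 each), so that Ucp1-KO cells held 30.7% of the WT level.

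The log2 fold change of Cd200 was -1.21 (standard error 0.34, limma unadjusted p = 0.0103, adjusted p = 0.868), and the exact two-sided permutation test gave p = 0.1, the smallest possible. With 1 culture left out at a time it lay between -1.52 and -0.82, the latter without WT replicate 11. Cd200 is on the list of differential genes that the study drew from these same cultures, so that its direction here is not independent evidence. Of the 12 rows of the gene in all annotations, 9 passed the minimum. All 9 were highest in WT replicate 11, as were Cd34 and Postn, whose promoter windows are printed beside that of Cd200, and in 8 of the 9 the Ucp1-KO cultures lay below all WT cultures. Cd200r1 itself, named after its values were seen, ranged from 0.248 RPKM in WT replicate 10 to 3.498 RPKM in Ucp1-KO replicate 14, the culture with the most leukocyte RNA.

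Zfp423, Tcf21 and Postn are not surface proteins. Zfp423 encodes a zinc finger transcription factor that commits cells to the adipocyte lineage, and was the steadiest marker. It was at 3.19, 3.004 and 2.92 RPKM in the WT and at 3.87, 3.18 and 2.99 RPKM in the Ucp1-KO cultures (NM_033327, chromosome 8, 87661810 to 87962053). The groups overlapped, and the highest culture of all was 1.33 times the lowest. The means were 3.04 ± 0.137 and 3.35 ± 0.465 RPKM (SD, n = 3 each), a log2 fold change of 0.10 (standard error 0.12, limma adjusted p = 0.909, exact two-sided permutation test p = 0.5). It was 0.017 without Ucp1-KO replicate 13 and 0.16 without Ucp1-KO replicate 15.

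Tcf21 encodes a basic helix-loop-helix factor known as a marker of white rather than brown precursors. It had 3, 3 and 5 reads in the WT cultures, and in Ucp1-KO cells 6, 0 and 3 (NM_011545, chromosome 10, 22817263 to 22820143). These reads correspond to 0.142, 0.145 and 0.228 RPKM and to 0.300, 0 and 0.162 RPKM, near the floor of 3 reads, and the groups overlapped (exact two-sided permutation test p = 1.0).

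Of 14 further transcription factor genes of mesenchymal precursors, all were tested, 5 higher and 9 lower in Ucp1-KO cells (median log2 fold change -0.07, and between -0.14 without WT replicate 10 and -0.036 without Ucp1-KO replicate 14). Prrx1, a homeobox factor of limb and fat mesenchyme (-0.52, unadjusted p = 0.0204), Osr1, a zinc finger factor of connective tissue (-0.79, unadjusted p = 0.0068), and Foxc2, a forkhead factor (-0.50, unadjusted p = 0.0342), were lower at an unadjusted p under 0.05. Twist2, a basic helix-loop-helix factor of mesenchyme (0.51, unadjusted p = 0.0215), was higher. These are 4 of 14 genes, against 5.54% of all tested transcripts, and the limma adjusted p of all 4 was 0.868. Prrx1 was the most abundant, at 67.9 to 73.5 RPKM in the WT and 39.2 to 64.0 RPKM in the Ucp1-KO cultures. Ebf1 and Ebf2, factors of adipocyte and brown adipocyte commitment, were even across the cultures at 19.9 to 22.5 and 19.3 to 27.1 RPKM.

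Postn encodes periostin, a secreted matrix protein of fibroblasts. Its transcript (NM_001198766, chromosome 3, 54359267 to 54391041 of GRCm38.p6) was at 134, 264 and 152 RPKM in the WT and at 181, 149 and 142 RPKM in the Ucp1-KO cultures. WT replicate 11 stood above all others, WT replicate 12 lay within the Ucp1-KO range and WT replicate 10 below it. The means were 183 ± 70.1 and 157 ± 20.8 RPKM (SD, n = 3 each), a log2 fold change of -0.17 (standard error 0.25, limma adjusted p = 0.934, exact two-sided permutation test p = 0.8) that turned to 0.13 without WT replicate 11. The other 2 RefSeq transcripts of the gene gave nearly the same values.

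Of 12 genes found on mesenchymal stromal cells in general, 11 were tested, 3 higher and 8 lower in Ucp1-KO cells, with a median log2 fold change of -0.23 and 0 past an unadjusted p of 0.05. It was -0.10 without WT replicate 11, -0.15 without Ucp1-KO replicate 15 and -0.35 without Ucp1-KO replicate 13. Their summed level was 310 to 387 RPKM in the WT and 255 to 320 RPKM in the Ucp1-KO cultures. Cd81, a tetraspanin (97.9 to 131 RPKM), and Itgb1, an integrin chain (88.9 to 129 RPKM), led the list, followed by Cd248, endosialin (17.1 to 41.4 RPKM). Of 18 ligands and partners of the markers, 15 were tested, 2 higher and 13 lower (median -0.20, 0 past an unadjusted p of 0.05). This median was -0.024 without WT replicate 11, -0.40 without WT replicate 10 and -0.32 without Ucp1-KO replicate 14. Cav1, the caveolin of adipocytes and endothelium (271 to 507 RPKM), Itgb5, an integrin chain (6.77 to 19.8 RPKM), and Tgfb1, a growth factor (6.24 to 12.7 RPKM), were the most abundant of them. Sele, an endothelial selectin, was at 0 in every culture.

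Of 6 genes of stromal cells that restrain adipogenesis, all were tested, 1 higher and 5 lower in Ucp1-KO cells, with a median log2 fold change of -0.75. F3, tissue factor (-0.52, unadjusted p = 0.022), Cpe, carboxypeptidase E (-0.98, unadjusted p = 0.0029), and Gdf10, a secreted factor of the bone morphogenetic protein family (-1.35, unadjusted p = 0.0043), had Ucp1-KO values below all WT values, a pattern of 5.15% of all tested transcripts. Their unadjusted p was under 0.05, as for 5.54% of all tested transcripts. The limma adjusted p of the 3 was 0.868, and Gdf10 is also on the list that the study drew from these cultures. Gdf10 was at 3.82, 9.30 and 4.58 RPKM in the WT and at 2.24, 1.71 and 0.903 RPKM in the Ucp1-KO cultures. Mgp, matrix Gla protein, was the most abundant of them, 70.3 to 183 RPKM in the WT and 37.2 to 99.2 RPKM in the Ucp1-KO cultures. Of 5 Schwann cell genes, 4 were tested, 3 higher and 1 lower (median 0.07, 0.0076 if Ucp1-KO replicate 13 is left out and 0.15 if Ucp1-KO replicate 15 is), led by S100b, a calcium-binding protein (5.22 to 8.43 RPKM), and Mbp, a protein of myelin (5.38 to 7.39 RPKM).

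Cultures of one genotype differed in most of the markers by more than is usual for transcripts of like abundance, those within 2-fold of a marker's mean. Among the WT cultures, the SD of log2(RPKM + 1) was above the median of such transcripts for 6 of the 8 markers, and among the Ucp1-KO cultures for 7. Cd34 had the largest WT value, an SD of 1.14 where transcripts of like abundance had a median of 0.17. Ly6a had the largest Ucp1-KO value, 1.013 where the median was 0.17. Zfp423 was below the median in both genotypes, at 0.05 and 0.15 where transcripts of like abundance had 0.16 and 0.18. For 4 of the 8 markers, the difference between the genotype means exceeded the larger SD within a genotype on the log2 scale, as it did for 23.8% of all tested transcripts.

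**Figure D3:**
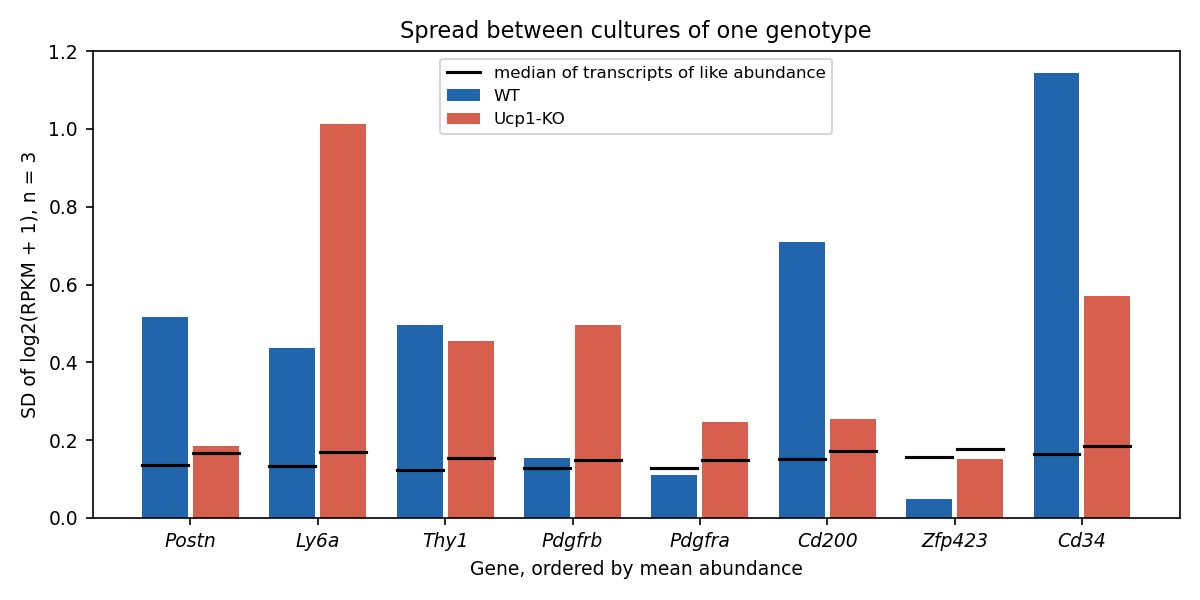
SD of log2(RPKM + 1) between the 3 cultures of a genotype for the 8 tested markers (bars), with the median SD of tested transcripts within 2-fold of the same mean abundance (black lines). Bars of Cd34 and Cd200 in WT cells and of Ly6a in Ucp1-KO cells stand far above their lines, and those of Zfp423 stay below.

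The spread ran along with single cultures. WT replicate 11 was the highest culture for 6 of the 8 markers (Pdgfra, Pdgfrb, Cd34, Thy1, Cd200 and Postn). Among annotated rows past the minimum, it was highest in 3 of 9 (Pdgfra), 4 of 6 (Pdgfrb) and 10 of 12 (Postn). For Cd34, Thy1 and Cd200 it was highest in all such rows. Ucp1-KO replicate 15 was the lowest culture for 5 markers (Pdgfra, Pdgfrb, Ly6a, Thy1 and Cd200). Of all tested transcripts, 26.8% were highest in WT replicate 11 and 26.5% lowest in Ucp1-KO replicate 15. Relative to the mean of all cultures, the median marker stood at 0.52 in WT replicate 11 and at -0.66 in Ucp1-KO replicate 15 on the log2 scale. The other 4 cultures lay between -0.12 and 0.12.

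**Figure D4:**
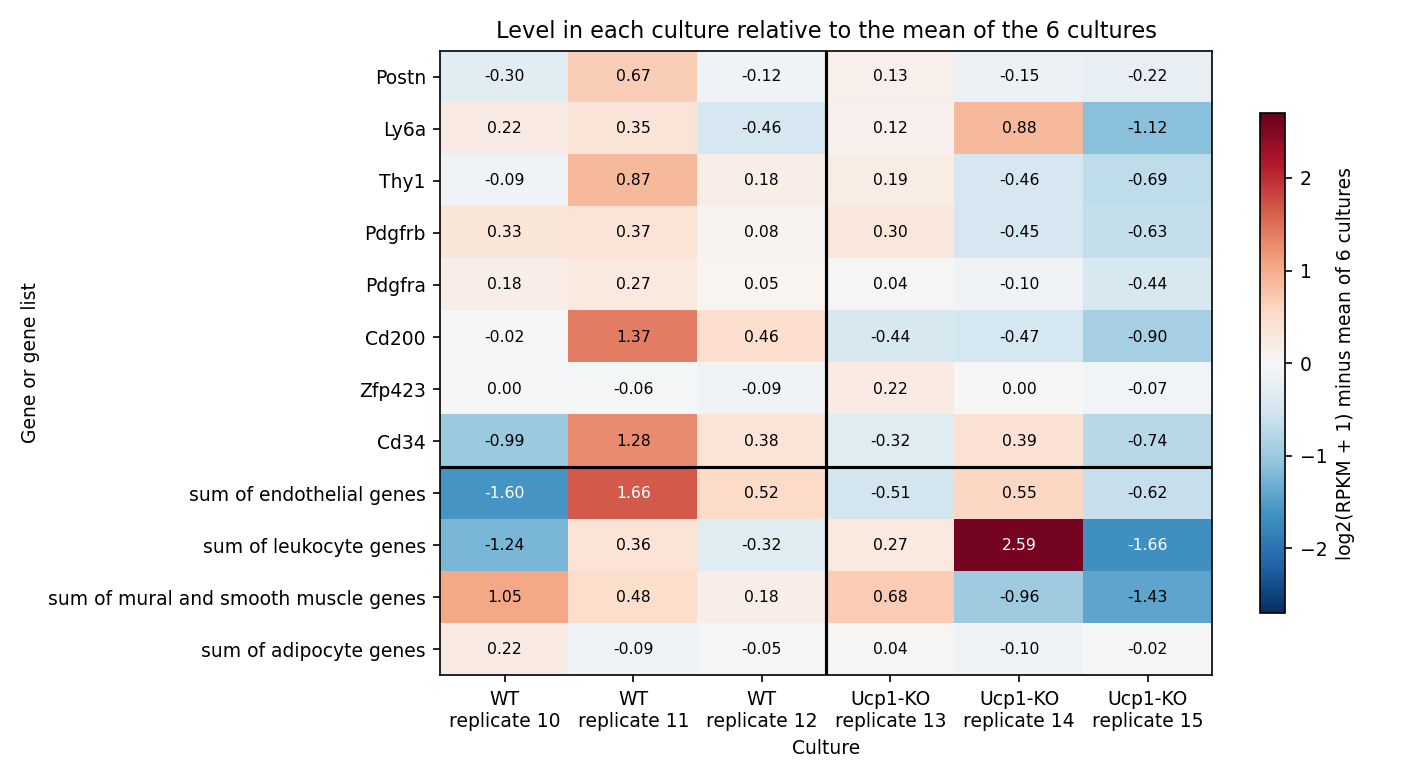
Level of the 8 tested markers, and of the summed RPKM of 4 cell type lists, in each culture as log2(RPKM + 1) minus the mean of the 6 cultures. Most markers are high in WT replicate 11 and low in Ucp1-KO replicate 15, and Cd34 follows the endothelial sum. The adipocyte sum stays between -0.10 and 0.22. It includes Ucp1, at 981 to 1775 RPKM in the WT and 307 to 409 RPKM in the Ucp1-KO cultures.

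As a description, the 5 genes whose levels ran most like the standardised mean of the markers over the 6 cultures, among 11205 genes compared, were Txndc5 (Pearson's r 0.999), Pxdn (0.997), Frmd6 (0.991), Inf2 (0.990) and Ccdc12 (0.989). Txndc5 encodes a protein disulfide isomerase of the endoplasmic reticulum and Pxdn the peroxidase that crosslinks type IV collagen. Txndc5 was at 54.7, 69.0 and 54.9 RPKM in the WT and 58.6, 53.2 and 43.6 RPKM in the Ucp1-KO cultures. The 6 points are the same libraries for every gene, and these values of r are the highest of all compared.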

How the data were processed

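RNA was sequenced in 3 WT and 3 Ucp1-KO cultures, grouped by the sample labels. The authors made libraries without strand information, aligned their single 50-base reads to mouse build 38, assigned unique ones to known transcripts in Genomatix software and deposited RPKM values. Versions of the mapper were not given in the sources used here. Their differential genes came from DESeq2 and were not used as values. Reads of a gene and of an overlapping antisense gene cannot be told apart.

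Of 168326 rows of the table, 28890 are RefSeq transcripts (NM or NR). The 16865 of them with a mean of at least 0.5 RPKM entered a comparison by limma 3.58.1 (R 4.3.3, empirical Bayes with intensity trend on log2(RPKM + 1), no covariates), with Benjamini-Hochberg adjustment over all of them and a threshold of 0.05. This scale understates fold changes of rare transcripts. For each marker, an exact permutation test (two-sided, scipy 1.17.1) compared the RPKM values. Reads were recovered from RPKM, transcript length and library total, and came out whole, within 0.02 of a read, for 16865 of 16865 tested transcripts and 99.99% of RefSeq transcripts above 0. Intervals of reads cover counting error only. Replicates of a genotype differed by a chi-square per transcript of 10.9 or more and were kept as separate libraries. The fit was tested on simulated data with noise drawn for each transcript separately: with 0 changed transcripts it made 0 calls, and with 200 changed 3-fold 165 calls.

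Named are the 10 markers, Ucp1, the 3 most abundant genes of each list and those with an unadjusted p under 0.05, and the 5 genes most like the markers. Some genes that this rule would name are not reported here. Cd3e and Sele, at 0 reads, Cd200r1, Notch3, Rgs5 and the ratios to Pecam1 were chosen after their values were seen. The markers and lists were chosen with earlier results of these data known, and no set was tested. Alternatives were 0.1 RPKM added, no minimum and a minimum of 1 RPKM, 1 row per gene, median-of-ratios scaling, limma-voom on the recovered reads, each culture left out, and the mean of a gene's RefSeq rows.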

Additional observations from a re-analysis of the deposited data

How the results depend on the processing

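Among the markers, 0 passed an adjusted p of 0.05 by limma under any alternative. Without a minimum abundance, 22 transcripts of all passed it, none of them a marker, and 1456 had an unadjusted p under 0.05. Leaving out 1 culture at a time gave 317 (without WT replicate 11) to 1754 transcripts (without WT replicate 10) at that unadjusted p, 1 to 4 of the markers, and 2 to 4 markers without overlap. The 4 under that p without Ucp1-KO replicate 13 were Pdgfra, Pdgfrb, Thy1 and Cd200, where 9.14% of all tested transcripts were under it. Genotypes did not overlap in 4 of the 8 markers and 27.8% of all transcripts in that setting, and in 14.4% to 32.8% of all transcripts over the 6 cultures left out, against 11.2% with all cultures. Cd200 had an unadjusted p under 0.05 under every alternative. No minimum gave 2 markers, adding Dpp4 at 1 to 5 reads in 4 cultures and 0 in the others, and limma-voom 2, adding Pdgfra. With 1 culture left out, the log2 fold change ranged from -1.05 to 0.085 for Cd34 and from -0.36 to 0.13 for Postn, both positive without WT replicate 11 only. That of Ly6a ranged from -0.54 to 0.46 and was positive without WT replicate 10 (0.01), WT replicate 11 (0.08) or Ucp1-KO replicate 15 (0.46). The median log2 fold change of the mural and smooth muscle genes was -1.24 with 0.1 RPKM added, -1.02 with a minimum of 1 RPKM, -1.32 by limma-voom, and -0.78 to -0.53 with 1 culture left out. The cause of these changes was not tested. With 1 culture left out, 4 (without WT replicate 11) to 7 of the 8 tested markers were lower in Ucp1-KO cells, with a median log2 fold change between -0.48 and -0.10. Of 324 values recomputed under alternatives, 302 kept their call or moved by less than the spread between replicates. Among these, the median changed sign for the endothelial genes without WT replicate 11 (0.14), for the leukocyte genes without Ucp1-KO replicate 14 (-0.36) and for the 1 skeletal muscle gene without Ucp1-KO replicate 13 (-0.10). No paired analysis was possible because the genotypes share no replicate numbers. Dpp4 and Tcf21 had at most 6 reads in any culture.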
